A study of Xenopus laevis with 8 samples.

Results

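The core spliceosome snRNP proteins were taken as the rows of the deposited count table whose gene symbol begins with snrp, snrnp, sf3a, sf3b or u2af, or with prpf or lsm followed by a digit. They were picked by symbol and not by their measured values, but with earlier results of these data known. They are 92 of 41881 rows and stand for 55 genes, because many genes of the allotetraploid Xenopus laevis have an L and an S copy (homeologues), each with its own row. Of the 92 members, 91 had enough counts to be tested, and the remaining member, sf3a1.S, held between 3 and 8 counts in each sample. Whole brains of NF stage 47 tadpoles were compared between neurod2 CRISPants and control siblings, with 4 pools of each and 4 brains in each pool. The CRISPants (pools 3, 4, 7 and 9) had received S. pyogenes Cas9 with a frame-shifting sgRNA against both homeologues of neurod2, a proneural transcription factor gene, when they were fertilised eggs, and the controls (pools 1, 2, 4 and 5), whose genotype is labelled wild type, had received Cas9 alone. CRISPants are F0 animals, so each brain is a mosaic of edited and unedited cells. All animals came from a single sibship. The p-values therefore set differences against the spread between pools of siblings and do not cover differences between sibships.

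Introns are removed from pre-mRNA by the spliceosome, which is built on each intron from small nuclear ribonucleoproteins (snRNPs), particles of a short nuclear RNA and its proteins. The U1 snRNP recognises the 5′ splice site, U2AF and the U2 snRNP recognise the 3′ splice site and the branch point, and the U4/U6.U5 tri-snRNP then joins and is rearranged into the catalytic machine. A ring of Sm proteins sits on the U1, U2, U4 and U5 RNAs, whereas U6 carries a ring of LSm proteins. LSm2 to LSm7 form that nuclear ring with LSm8, and with LSm1 they form a cytoplasmic ring that helps to decap and degrade mRNA. The symbols also take in relatives that are not snRNP proteins, such as the lsm14 genes of cytoplasmic mRNA granules. These are described apart but are included in counts and sums over all members.

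Total counts ran from 18945762 to 25937707 per pool, and TMM scaling factors from 0.989 to 1.015. Levels are given as CPM (counts in each 1000000 of the library) after TMM scaling, and a member is said to have risen or fallen only where edgeR's quasi-likelihood test gave a Benjamini-Hochberg adjusted p under 0.05 over the 25171 genes tested. neurod2.L was at 32.9 to 38.6 CPM in the control pools and 19.0 to 31.1 CPM in the CRISPant pools, and neurod2.S, which did not pass the test, at 40.3 to 52.2 and 26.7 to 45.7 CPM. Markers of neurons were abundant in all pools, with sums over 26 rows of 11730 to 12590 CPM in control and 11170 to 12430 CPM in CRISPant brains (3 of 26 tested rows rose and 9 fell). Of the markers of proliferating cells 20 of 21 tested rows rose and none fell. Their sum over 26 rows was 602 to 746 CPM in control and 1352 to 1724 CPM in CRISPant brains, with mcm3.L at 0 in every pool. Of 21 rows for neural progenitors and radial glia 11 rose and none fell, with sums of 3304 to 3747 and 3937 to 4403 CPM. Sums for leukocytes were 7.78 to 9.68 CPM in control and 5.19 to 6.93 CPM in CRISPant brains (2 of 7 rows fell and none rose), and for skeletal muscle 7.76 to 9.37 and 7.75 to 9.40 CPM (1 of 8 rows changed each way). Sums for erythrocytes were 497 to 747 CPM in control and 376 to 1068 CPM in CRISPant brains, with 1 of 7 rows higher. Of 14 rows for cartilage, fibroblasts and meninges, 6 rose and 2 fell (sums 233 to 315 CPM in control and 303 to 367 CPM in CRISPant brains), of 12 oligodendrocyte rows 1 rose and 4 fell (198 to 242 and 193 to 217 CPM), and of 12 endothelial rows 1 rose and none fell (70.4 to 77.7 and 65.0 to 81.8 CPM). Over all genes tested 21.7% rose and 20.8% fell. The shares for skeletal muscle (12.5% each way), erythrocytes (14.3% higher and none lower) and endothelium (8.33% higher and none lower) were under these. The part of these cell types in the results below was not tested, and in pooled tissue a change in the number of cells and in RNA per cell cannot be told apart.

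Transcripts of snRNP proteins were more often higher than lower in CRISPant brains. Of 91 tested members 46 rose (50.5%), 8 fell (8.79%) and the other 37 did not pass, where over all genes tested 21.7% rose and 20.8% fell, 42.4% in all. The median log2 fold change of the members was 0.18, against -0.002 over all genes. Most of the changes were small: 8 of 91 tested members were higher by more than 1.5-fold and 1 was lower by that much. Over the 25171 genes tested it was 1795 (7.13%) and 1313 (5.22%). The share of members higher by that much, 8.79%, was thus near that of all genes. Every CRISPant pool lay above every control pool in 35 of 91 members and below in 7, against 4872 (19.4%) and 4654 (18.5%) of 25171 genes. The summed level of all 92 members was 5497, 5354, 5617 and 5389 CPM in control pools 1, 2, 4 and 5 and 5637, 5654, 6019 and 6045 CPM in CRISPant pools 3, 4, 7 and 9, so that the groups did not overlap and CRISPant pools 7 and 9 were highest. Without prpf8.S, the member with the largest difference in CPM, the sum was higher by 5.64% in place of 6.86%, and CRISPant pools 3 and 4 (5262 and 5269 CPM) lay under control pool 4 (5316 CPM). CRISPant pools 7 and 9 also had the highest sums of proliferating cell markers, 1724 and 1716 CPM against 1503 and 1352 CPM in CRISPant pools 3 and 4. They were likewise highest for progenitors and radial glia (4403 and 4403 against 4104 and 3937 CPM) and for erythrocytes (1068 and 878 against 502 and 376 CPM). The same held for cartilage, fibroblasts and meninges (367 and 335 against 328 and 303 CPM), and for neurons they were lowest (11170 and 11440 against 11570 and 12430 CPM). No other marker list had both at the top of all pools. The part of these cell types in the sum of the members was not tested. Without any one pool, 38 to 46 members rose and 5 to 10 fell, the 5 without CRISPant pool 3.

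**Figure D1:**
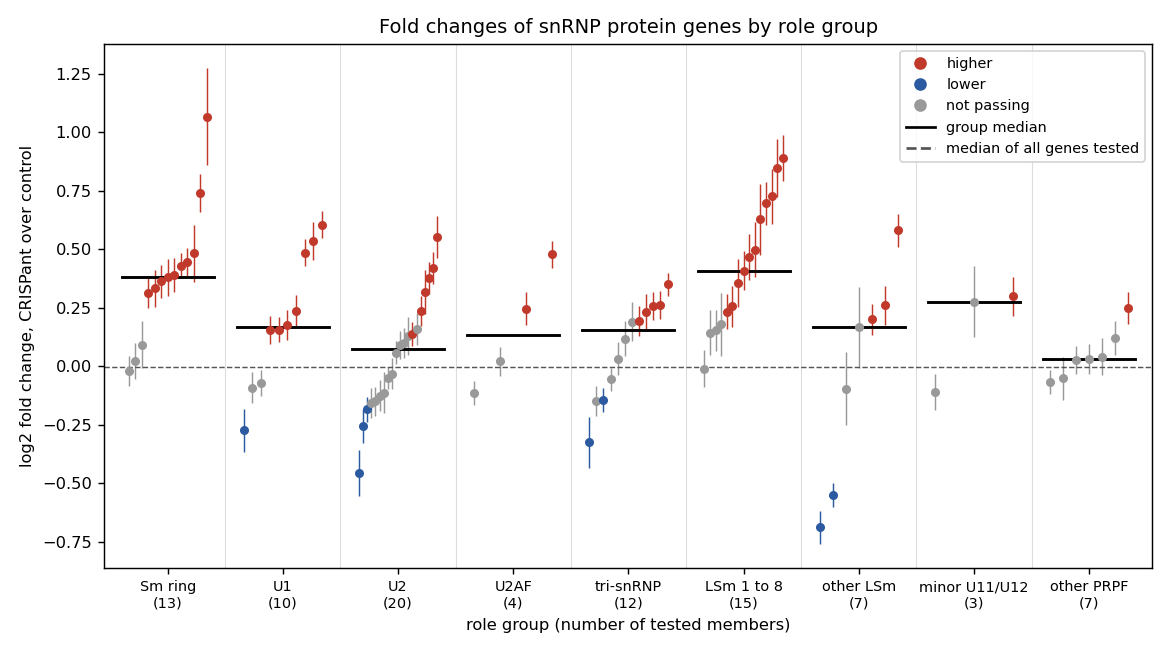
Log2 fold change (CRISPant over control, vertical axis) of the 91 tested members in 9 role groups, with bars of 1 standard error from edgeR, black lines at the median of each group and a dashed line at the median of all genes tested. All tested members of the Sm ring and of LSm 1 to 8 that passed were higher, and the U2 and tri-snRNP groups held members of both directions.

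The groups named by particle differed in how many of their members passed. In the Sm ring 10 of 13 tested members rose and none fell (median log2 fold change 0.38), and among LSm 1 to 8 it was 11 of 15 and none (0.41). For U1 proteins 7 of 10 rose and 1 fell (0.17), for U2 proteins 6 of 20 rose and 3 fell (0.08), and for tri-snRNP proteins 5 of 12 rose and 2 fell (0.16). The shares that rose were 76.9% (Sm ring), 73.3% (LSm 1 to 8), 70% (U1), 30% (U2) and 41.7% (tri-snRNP). Over all genes tested 21.7% rose and 20.8% fell. The shares that fell in U2 (15%) and the tri-snRNP (16.7%), and the share that rose in U2, were near these. Summed levels were higher by 22.6% in the Sm ring, 29.3% in LSm 1 to 8 and 10.5% in the tri-snRNP group, without overlap of the pools, and by 5.81% in U1 and 3.11% in U2, where pools overlapped. A single row carried most of the tri-snRNP difference: without prpf8.S the sums were 736, 729, 769 and 785 CPM in control pools 1, 2, 4 and 5 and 746, 761, 813 and 809 CPM in CRISPant pools 3, 4, 7 and 9, higher by 3.66% with overlapping pools. With the row of the largest difference left out in the same way, an alternative chosen after seeing the data, the Sm ring sum was higher by 20.4% without snrpb.S, with CRISPant pool 4 (579 CPM) just under control pool 4 (582 CPM), and the LSm 1 to 8 sum by 26.7% without lsm7.L and without overlap. These counts and medians describe the groups, and the difference between groups was not tested. The U1 count of risen members was 4 without control pool 1, control pool 2, CRISPant pool 7 or CRISPant pool 9, and the tri-snRNP count was 3 without CRISPant pool 7, while the Sm ring count was 10 whichever pool was left out.

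**Figure D2:**
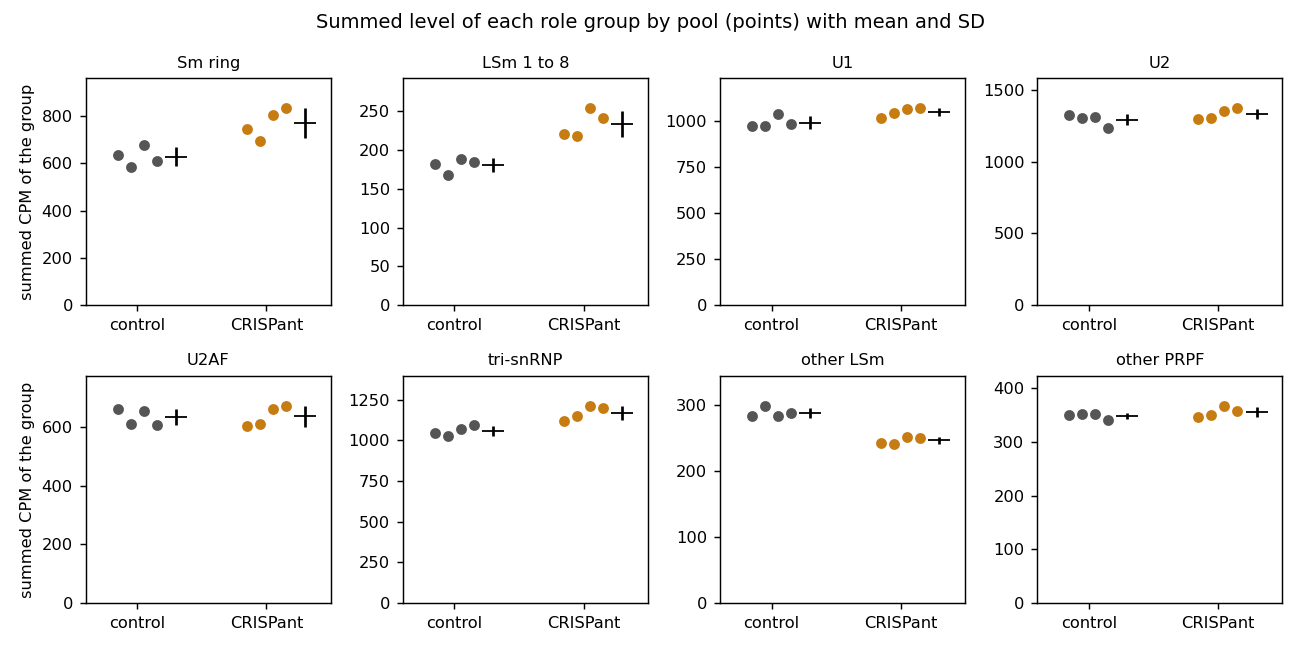
Summed CPM (vertical axis, from 0) of all members of 8 role groups in each pool, with control pools 1, 2, 4 and 5 in grey, CRISPant pools 3, 4, 7 and 9 in orange, and the mean and SD in black. The groups of pools do not overlap for the Sm ring, LSm 1 to 8, the tri-snRNP and the other LSm genes, the last of these being lower in CRISPant brains, but they do overlap for the tri-snRNP without prpf8.S, the Sm ring without snrpb.S and the other LSm genes without lsm14b.L.

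The Sm proteins form the ring that the U1, U2, U4 and U5 snRNPs share. Of 13 tested members 10 rose in CRISPant brains (76.9%) and none fell, against 21.7% and 20.8% of all genes tested. snrpd1.S, on chromosome 6S between positions 55149396 and 55164958 of the XENLA_10.1 build, was at 21.5, 19.3, 22.2 and 20.3 CPM in control pools 1, 2, 4 and 5 and 31.5, 31.9, 38.9 and 37.03 CPM in CRISPant pools 3, 4, 7 and 9. Every CRISPant pool lay above every control pool, with pools 7 and 9 highest (mean ± SD, n = 4 pools each, 20.9 ± 1.29 CPM for controls and 34.8 ± 3.69 CPM for CRISPants; log2 fold change 0.74 ± 0.08 SE, adjusted p = 3.2e-07 from edgeR). Its homeologue snrpd1.L was at 81.2, 76.1, 79.5 and 80.5 CPM in the control pools and 106, 99.02, 109 and 113 CPM in the CRISPant pools. It rose without overlap but by less (log2 fold change 0.43 ± 0.05 SE, adjusted p = 2.5e-06).

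snrpb.S, for the Sm B protein, was at 89.8, 84.6, 96.1 and 84.8 CPM in the control pools and 113, 113, 127 and 130 CPM in the CRISPant pools. The pools did not overlap (log2 fold change 0.44 ± 0.06 SE, adjusted p = 6.2e-06). Its homeologue snrpb.L was at 106, 100.4, 111 and 98.1 CPM in the control pools and 101, 91.6, 103 and 114 CPM in the CRISPant pools, with overlapping groups and no call (log2 fold change -0.02 ± 0.06 SE, adjusted p = 0.82). snrpd3.S was at 24.9, 25.3, 27.6 and 24.02 CPM in the control pools and 30.1, 32.7, 34.7 and 36.1 CPM in the CRISPant pools, again with every CRISPant pool above every control pool (log2 fold change 0.39 ± 0.07 SE, adjusted p = 2.1e-04), and snrpd3.L rose by a similar amount (0.38).

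The largest fold change of any member was that of snrpg.L, a copy of the Sm G gene with few counts. It was at 2.40, 1.67, 2.61 and 3.29 CPM in the control pools and 5.66, 3.35, 5.68 and 6.29 CPM in the CRISPant pools, from 36 to 70 counts in the control and 85 to 136 counts in the CRISPant pools. The groups were separate, with CRISPant pool 4 just above the highest control (log2 fold change 1.07 ± 0.21 SE, adjusted p = 4.6e-04). snrpg.S, for the same protein, rose with 0.36 (adjusted p = 3.5e-04). snrpe.L and snrpe.S rose with 0.48 and 0.31 and snrpd2.L with 0.33, and the pools of snrpe.L and snrpd2.L overlapped. The Sm F gene was the exception of the ring, since neither snrpf.L, at 0.09 (adjusted p = 0.5), nor snrpf.S, at 0.02 (adjusted p = 0.84), passed the test.

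**Figure D3:**
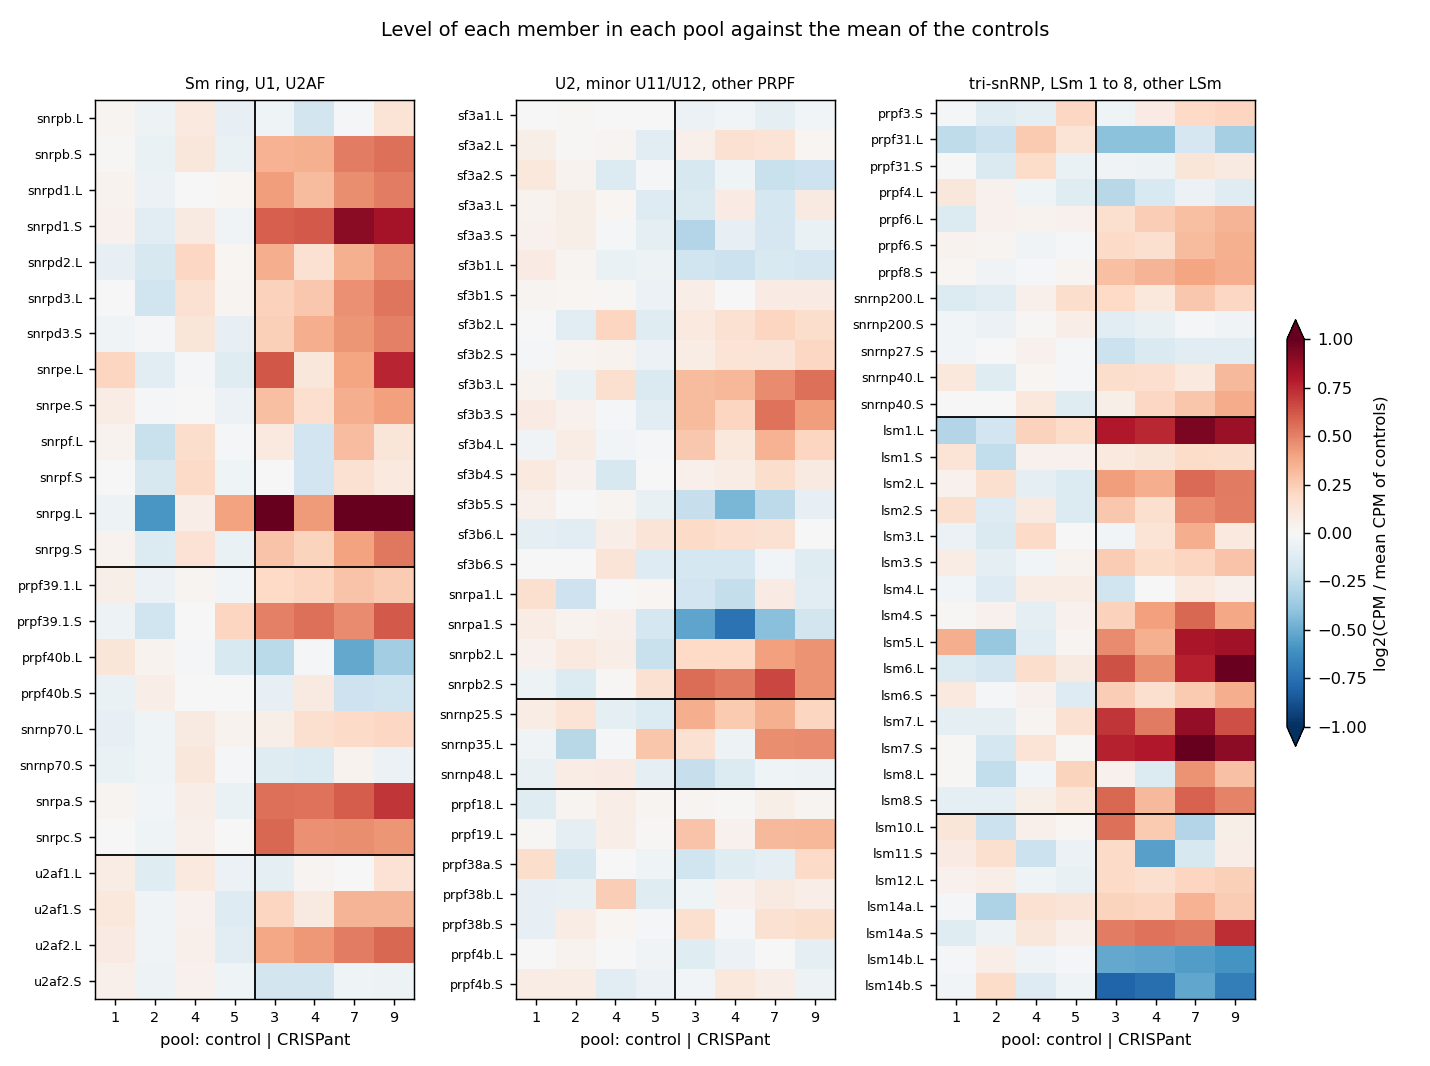
Level of 89 of the 91 tested members (rows, in 3 columns of role groups) in each pool as log2 of its CPM over the mean CPM of the control pools, with control pools 1, 2, 4 and 5 left and CRISPant pools 3, 4, 7 and 9 right of the vertical line. Red is higher and blue lower, the colour scale ends at 1 and -1, and most Sm ring and LSm 1 to 8 members are red in all 4 CRISPant pools while lsm14b.L and lsm14b.S are blue.

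Of the 15 tested members of the LSm rings 11 rose in CRISPant brains (73.3%), against 21.7% of all genes tested. More than 1.5-fold higher were 5 of the 15 members, against 1795 of 25171 genes tested (7.13%). Each of the 8 genes had at least 1 copy that rose, a count that was not made over all genes. lsm7 encodes a subunit that the nuclear and the cytoplasmic ring share. lsm7.S was at 8.95, 7.88, 9.76 and 8.93 CPM in the control pools and 15.2, 15.4, 18.7 and 16.5 CPM in the CRISPant pools, with CRISPant pool 7 the highest (log2 fold change 0.89 ± 0.10 SE, adjusted p = 4.1e-07). lsm7.L, on chromosome 1L between positions 99847875 and 99864142, was at 12.6, 12.7, 13.8 and 14.99 CPM in the control pools and 22.2, 19.3, 24.9 and 21.1 CPM in the CRISPant pools. Both copies were separate between the groups (log2 fold change 0.70 ± 0.09 SE, adjusted p = 3.6e-06 for the L copy).

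lsm1 encodes the subunit that marks the cytoplasmic ring of mRNA decay. lsm1.L was at 4.49, 4.82, 6.48 and 6.25 CPM in the control pools and 9.63, 9.28, 10.6 and 10.05 CPM in the CRISPant pools, and all CRISPant pools were above all controls (log2 fold change 0.85 ± 0.13 SE, adjusted p = 1.6e-05). lsm1.S was at 12.4, 9.55, 11.7 and 11.7 CPM in the control pools and 12.1, 12.3, 12.9 and 12.8 CPM in the CRISPant pools, where the groups overlapped (log2 fold change 0.14 ± 0.10 SE, adjusted p = 0.24). lsm8 stands for the nuclear ring on U6, and its S copy rose with 0.50 (adjusted p = 0.0017) while lsm8.L, at 0.18 (adjusted p = 0.3), did not pass. The subunits that mark each of the rings thus had a copy that rose and a copy without a call.

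Among the other shared subunits, lsm6.L was at 7.36, 7.23, 9.18 and 8.65 CPM in the control pools and 12.6, 11.2, 13.9 and 16.1 CPM in the CRISPant pools and did not overlap (log2 fold change 0.73 ± 0.12 SE, adjusted p = 4.4e-05). lsm5.L was at 6.66, 3.99, 4.77 and 5.26 CPM in the control pools and 7.19, 6.63, 9.09 and 9.26 CPM in the CRISPant pools, where CRISPant pool 4 lay just under control pool 1 (log2 fold change 0.63 ± 0.15 SE, adjusted p = 0.0023). lsm4.S was at 16.5, 16.9, 15.3 and 16.9 CPM in the control pools and 19.2, 21.8, 24.5 and 21.4 CPM in the CRISPant pools, without overlap (log2 fold change 0.41 ± 0.08 SE, adjusted p = 4.8e-04), and lsm4.L at 23.2, 21.6, 24.9 and 24.8 CPM in the control pools and 20.5, 23.5, 25.2 and 24.4 CPM in the CRISPant pools, with overlap and a log2 fold change of -0.01 (adjusted p = 0.93). lsm2.L and lsm2.S rose with 0.47 and 0.36. lsm3.S and lsm6.S rose with 0.23 and 0.26, and lsm3.L did not pass (0.15). The lsm3.S call was lost without control pool 2 (adjusted p = 0.053) and the lsm6.S call without control pool 2, control pool 5 or CRISPant pool 9 (adjusted p from 0.055 to 0.078 from edgeR).

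U1 opens spliceosome assembly at the 5′ splice site. Of 10 tested U1 members 7 rose (70%) and 1 fell (10%), against 21.7% and 20.8% of all genes tested. The genes of the U1 proteins A and C, each with a row for the S copy only, rose with the smallest p-values of the group. snrpa.S, for the A protein, which binds U1 RNA, lies on chromosome 8S between positions 84600197 and 84609126 and was at 43.1, 41.5, 44.4 and 40.3 CPM in control pools 1, 2, 4 and 5 and 62.1, 61.6, 64.5 and 69.5 CPM in CRISPant pools 3, 4, 7 and 9. No pools overlapped, and the rise was the one with the smallest p of all members that rose (42.3 ± 1.79 CPM for controls and 64.5 ± 3.60 CPM for CRISPants; log2 fold change 0.61 ± 0.06 SE, adjusted p = 9.1e-08). snrpc.S, for the C protein, which steadies the pairing of U1 with the splice site, was at 42.6, 41.4, 44.2 and 42.6 CPM in the control pools and 63.5, 58.8, 58.9 and 58.1 CPM in the CRISPant pools. The groups were far apart relative to their spread (log2 fold change 0.49 ± 0.06 SE, adjusted p = 8.5e-07).

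snrnp70 encodes U1-70K, another protein bound to U1 RNA, and its copies differed in their calls. snrnp70.L was at 215, 221, 242 and 232 CPM in the control pools and 238, 254, 259.6 and 263 CPM in the CRISPant pools, with CRISPant pool 3 below control pool 4 (log2 fold change 0.16 ± 0.05 SE, adjusted p = 0.024), and its call was lost without control pool 1, control pool 2, CRISPant pool 7 or CRISPant pool 9 (adjusted p from 0.06 to 0.088). snrnp70.S was at 289, 295, 328 and 302 CPM in the control pools and 279, 276, 310.5 and 291 CPM in the CRISPant pools and did not pass (log2 fold change -0.07 ± 0.06 SE, adjusted p = 0.33).

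prpf39.1 and prpf40b are relatives of genes for yeast U1 proteins. prpf39.1.S was at 19.2, 17.4, 19.9 and 23.1 CPM in the control pools and 28.2, 29.2, 27.6 and 30.4 CPM in the CRISPant pools and rose without overlap (log2 fold change 0.54 ± 0.08 SE, adjusted p = 2.3e-05). prpf39.1.L was at 25.3, 23.3, 24.7 and 23.8 CPM in the control pools and 27.8, 28.2, 29.7 and 28.9 CPM in the CRISPant pools, also separate (log2 fold change 0.24 ± 0.07 SE, adjusted p = 0.0068), and shares 588 bp with c14orf28.L in the RefSeq annotation. prpf40b.L, the only U1 member that fell, was at 137, 129, 124 and 113 CPM in the control pools and 104, 125, 88.01 and 98.6 CPM in the CRISPant pools. CRISPant pool 4 lay among the controls (log2 fold change -0.27 ± 0.09 SE, adjusted p = 0.032), and without it the log2 fold change was -0.37 (adjusted p = 1.8e-04). The call was lost without any other pool but control pool 5 (adjusted p from 0.051 to 0.091 from edgeR). prpf40b.S had -0.09 (adjusted p = 0.29), and fell without CRISPant pool 4 (adjusted p = 0.048).

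**Figure D4:**
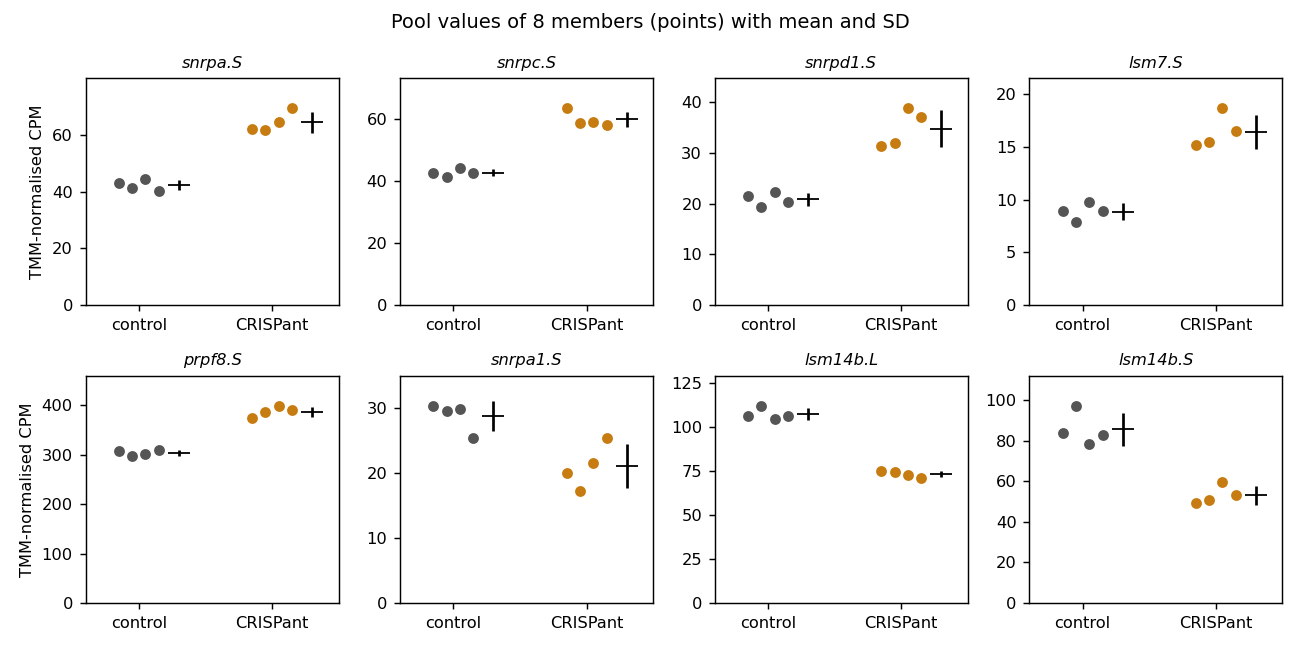
TMM-normalised CPM (vertical axes, from 0) of 8 members in each pool, with control pools in grey and CRISPant pools in orange, and the mean and SD in black. In snrpa.S, snrpc.S, snrpd1.S, lsm7.S and prpf8.S every CRISPant pool is above every control pool, and in snrpa1.S, lsm14b.L and lsm14b.S every CRISPant pool is below, narrowly so in snrpa1.S.

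U2 binds the branch point, and of its 20 tested members 6 rose (30%) and 3 fell (15%), against 21.7% and 20.8% of all genes tested. The A′ and B″ proteins of U2, which bind its RNA as a pair, had copies that moved in opposite directions. snrpb2.S, for B″, was at 10.96, 10.3, 11.5 and 12.6 CPM in the control pools and 16.7, 16.3, 18.04 and 15.5 CPM in the CRISPant pools. It rose without overlap (log2 fold change 0.55 ± 0.09 SE, adjusted p = 4.8e-05), and so did snrpb2.L (0.32). snrpa1.S, for A′, was at 30.4, 29.5, 29.8 and 25.5 CPM in the control pools and 19.99, 17.2, 21.6 and 25.4 CPM in the CRISPant pools. It fell, with CRISPant pool 9 just under control pool 5 (log2 fold change -0.45 ± 0.10 SE, adjusted p = 9.8e-04), while snrpa1.L had -0.11 (adjusted p = 0.32) and did not pass.

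The SF3B subcomplex of U2 grips the branch point. sf3b3.L, for its large scaffold subunit, lies on chromosome 4L between positions 69461186 and 69494628 and was at 106, 98.5, 116 and 93.3 CPM in the control pools and 128, 129.9, 144 and 151 CPM in the CRISPant pools. It did not overlap (log2 fold change 0.42 ± 0.07 SE, adjusted p = 5.2e-05), and neither did sf3b3.S, at 52.5, 51.2, 48.95 and 45.9 CPM in the control pools and 61.8, 57.7, 72.2 and 66.3 CPM in the CRISPant pools (log2 fold change 0.38 ± 0.07 SE, adjusted p = 1.5e-04). Both copies of the scaffold gene rose by about the same amount.

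sf3b1.L, for the subunit that holds the branch point itself, was at 154, 148, 139 and 139.9 CPM in the control pools and 127, 125, 130.3 and 129 CPM in the CRISPant pools. Each CRISPant pool was below each control pool by a small margin (log2 fold change -0.18 ± 0.05 SE, adjusted p = 0.0066). sf3b1.S was at 161, 160, 159 and 152 CPM in the control pools and 166, 158, 167 and 167 CPM in the CRISPant pools and did not pass (0.06). The small subunit gene sf3b5.S was at 47.3, 45.7, 46.7 and 43.4 CPM in the control pools and 38.9, 33.3, 38.1 and 43.3 CPM in the CRISPant pools and fell, with CRISPant pool 9 close to control pool 5 (log2 fold change -0.26 ± 0.07 SE, adjusted p = 0.0064).

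sf3b4.L rose with 0.24 (adjusted p = 0.0055), and sf3b2.S with 0.14 (adjusted p = 0.034), a call lost without control pools 1, 2 or 5 or CRISPant pools 7 or 9 (adjusted p from 0.051 to 0.1). sf3b2.L, sf3b4.S, sf3b6.L and sf3b6.S did not pass, with log2 fold changes from -0.13 to 0.16. In the SF3A subcomplex, which links SF3B to the rest of U2, none of 5 tested members passed in edgeR. Most genes did not pass either, 14494 of the 25171 tested. The log2 fold changes of the SF3A members ran from -0.16 to 0.09. At an unadjusted p under 0.05 there were 2, sf3a2.S and sf3a3.S, and with the filter of 1 CPM in at least 4 samples sf3a2.S passed (adjusted p = 0.046). DESeq2 called none of the 5. sf3a1.L was at 184, 186, 185 and 185 CPM in the control pools and 178, 182, 174 and 182 CPM in the CRISPant pools, and each CRISPant pool was below each control pool without passing the test (log2 fold change -0.05 ± 0.05 SE, adjusted p = 0.43). The counts for SF3A and SF3B apart were made after the values were seen. Without CRISPant pool 4, 5 U2 members fell, sf3a2.S and sf3a3.S being the added ones.

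U2AF brings U2 to the intron by binding the pyrimidine tract (U2AF2) and the AG at the 3′ splice site (U2AF1). u2af2.L was at 78.05, 71.8, 76.2 and 68.6 CPM in the control pools and 96.1, 99.5, 105 and 109.9 CPM in the CRISPant pools. Its pools did not overlap and it rose (log2 fold change 0.48 ± 0.06 SE, adjusted p = 1.6e-06). u2af2.S was at 469, 437, 466 and 438 CPM in the control pools and 398, 399, 439 and 438 CPM in the CRISPant pools and did not pass (log2 fold change -0.11 ± 0.05 SE, adjusted p = 0.085). u2af1.S was at 41.4, 37.6, 39.7 and 35.2 CPM in the control pools and 44.6, 40.9, 48.6 and 48.7 CPM in the CRISPant pools and rose with a slight overlap, CRISPant pool 4 being under control pool 1 (log2 fold change 0.25 ± 0.07 SE, adjusted p = 0.0071). u2af1.L was at 74.6, 65.05, 75.7 and 67.9 CPM in the control pools and 66.2, 72.3, 70.8 and 78.05 CPM in the CRISPant pools, with no call (0.02). The summed level of the 4 rows overlapped between the groups, with a mean of 636 CPM (SD 28.5) over 4 control pools and 638 CPM (SD 35.5) over 4 CRISPant pools. Most of that level was u2af2.S, with a mean of 453 CPM in controls. Without it, an alternative chosen after seeing the data, the sum of the other rows was higher by 20.4% in CRISPant brains. Most of that rise was u2af2.L, with means of 73.7 CPM in control and 103 CPM in CRISPant pools.

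Within the tri-snRNP, 5 of 7 members for U5 proteins rose (71.4%) and none fell, against 21.7% and 20.8% of all genes tested. Of 5 members for U4/U6 and tri-snRNP proteins none rose and 2 fell (40%). This split, into parts of few members, was made after the values were seen and was not tested. prpf8.S, for the protein at the heart of U5 that cradles the catalytic RNAs, lies on chromosome 2S between positions 36136110 and 36158689 and was at 308, 297, 301 and 310 CPM in control pools 1, 2, 4 and 5 and 374, 386, 399 and 390 CPM in CRISPant pools 3, 4, 7 and 9. The groups were well separated (304 ± 5.996 CPM for controls and 387 ± 10.3 CPM for CRISPants; log2 fold change 0.35 ± 0.05 SE, adjusted p = 6.1e-06). prpf6, which bridges U5 and U4/U6, rose in both copies. prpf6.L was at 60.5, 68.5, 68.2 and 68.4 CPM in the control pools and 74, 78.5, 81.8 and 83.9 CPM in the CRISPant pools (log2 fold change 0.26 ± 0.06 SE, adjusted p = 0.0012), and prpf6.S at 50.4, 50.1, 48.01 and 48.6 CPM in the control pools and 56.3, 54.98, 61.4 and 62.9 CPM in the CRISPant pools (log2 fold change 0.26 ± 0.06 SE, adjusted p = 0.0014). In both copies the CRISPant pools lay above all controls. The whole span of prpf6.L, 8658 bp, lies within that of the RefSeq gene LOC108701997.

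snrnp200 encodes Brr2, the helicase that unwinds U4 from U6. snrnp200.L was at 108, 110.4, 123 and 135 CPM in the control pools and 137, 128, 144 and 138 CPM in the CRISPant pools and rose with overlap (log2 fold change 0.19 ± 0.06 SE, adjusted p = 0.02), a call lost without control pool 1, control pool 2 or CRISPant pool 7 (adjusted p from 0.057 to 0.086). snrnp200.S did not pass (-0.06). Of the U5 gene snrnp40, the S copy rose with 0.23 (adjusted p = 0.022) and lost its call without control pool 5 or CRISPant pools 7 or 9 (adjusted p from 0.051 to 0.084), and the L copy had 0.19 (adjusted p = 0.064).

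The U4/U6 proteins keep U6 inactive until the spliceosome is assembled. prpf31.L was at 14.5, 14.9, 20.8 and 18.99 CPM in the control pools and 13.01, 13.02, 15.4 and 13.8 CPM in the CRISPant pools. It fell, with CRISPant pool 7 among the controls (log2 fold change -0.32 ± 0.11 SE, adjusted p = 0.021), and its call was lost without control pools 4 or 5 or CRISPant pools 3 or 4 (adjusted p from 0.054 to 0.098). snrnp27.S, for another tri-snRNP protein, was at 89.9, 91.7, 94.4 and 91.2 CPM in the control pools and 78.9, 83, 85.1 and 85.1 CPM in the CRISPant pools and fell without overlap (log2 fold change -0.14 ± 0.05 SE, adjusted p = 0.028). That call was lost without control pools 2 or 4 or CRISPant pool 3 (adjusted p from 0.051 to 0.1). prpf31.S, prpf3.S and prpf4.L did not pass (0.03, 0.12 and -0.15). No tri-snRNP member remained lower without control pool 4 or without CRISPant pool 3, and 1 was lower without control pool 2 or CRISPant pool 4.

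Proteins of the minor spliceosome, which removes a rare class of introns with U11 and U12, were measured in 3 members. snrnp25.S was at 16.2, 16.9, 14.5 and 14.1 CPM in the control pools and 19.8, 18.5, 19.8 and 17.9 CPM in the CRISPant pools and rose without overlap (log2 fold change 0.30 ± 0.08 SE, adjusted p = 0.0067). snrnp35.L was at 4.22, 3.57, 4.27 and 5.26 CPM in the control pools and 4.81, 4.18, 5.99 and 6.02 CPM in the CRISPant pools and snrnp48.L at 23.1, 25.6, 25.8 and 22.8 CPM in the control pools and 20.7, 22.1, 23.6 and 23.5 CPM in the CRISPant pools, and neither passed (0.28 and -0.11). Of the remaining PRPF genes, prpf19.L, for the ubiquitin ligase of the complex that activates the spliceosome, was at 42.6, 39.5, 44.1 and 42.7 CPM in the control pools and 51.5, 43.5, 52.8 and 53.1 CPM in the CRISPant pools. It rose, and CRISPant pool 4, the lowest of its group, was under control pool 4 (log2 fold change 0.25 ± 0.07 SE, adjusted p = 0.0055). The other 6 members, of prpf18, prpf38a, prpf38b and the kinase gene prpf4b, did not pass, with log2 fold changes from -0.07 to 0.12. Among these, prpf4b.L was at 115, 117, 114 and 112 CPM in the control pools and 105, 110.3, 114 and 108 CPM in the CRISPant pools, prpf38b.S at 22.6, 25.1, 24.2 and 23.6 CPM in the control pools and 26.7, 23.7, 26.6 and 27.03 CPM in the CRISPant pools and prpf38a.S at 23.4, 18.5, 20.8 and 20.1 CPM in the control pools and 18.04, 19.1, 19.4 and 23.6 CPM in the CRISPant pools, each with overlapping groups. prpf38a.S shares 4185 bp with tut4.S in the RefSeq annotation.

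The lsm14 genes, which share a symbol with the rings but encode proteins of cytoplasmic granules that hold mRNAs back from translation, held the strongest falls. lsm14b.L, on chromosome 9_10L between positions 15039428 and 15050354, was at 106, 112, 104 and 106 CPM in control pools 1, 2, 4 and 5 and 75.1, 74.4, 72.8 and 71.1 CPM in CRISPant pools 3, 4, 7 and 9. All CRISPant pools were below all control pools with little spread in either group (107 ± 3.34 CPM for controls and 73.3 ± 1.79 CPM for CRISPants; log2 fold change -0.55 ± 0.05 SE, adjusted p = 4.6e-08, the smallest p of all members). lsm14b.S was at 83.9, 97.2, 78.4 and 83.01 CPM in the control pools and 49.03, 50.8, 59.8 and 53 CPM in the CRISPant pools, also without overlap, and was the only member lower by more than 1.5-fold (log2 fold change -0.69 ± 0.07 SE, adjusted p = 2.5e-07).

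The related gene lsm14a moved the other way. lsm14a.S was at 26.4, 27.7, 30.96 and 29.6 CPM in the control pools and 40.8, 41.8, 41.03 and 47.8 CPM in the CRISPant pools, above the controls in every CRISPant pool (log2 fold change 0.58 ± 0.07 SE, adjusted p = 1.7e-06), and lsm14a.L was at 31.7, 25.9, 35.6 and 35.1 CPM in the control pools and 37.5, 37.1, 40.8 and 38.3 CPM in the CRISPant pools (log2 fold change 0.26 ± 0.08 SE, adjusted p = 0.015). The lsm14a.L call was lost without control pool 2, the lowest pool (adjusted p = 0.067). lsm12.L rose with 0.20 (adjusted p = 0.019), and lost its call without control pools 4 or 5 (adjusted p of 0.05 and 0.061). lsm10.L and lsm11.S, for the U7 snRNP that trims histone mRNAs, did not pass, with log2 fold changes of 0.17 (adjusted p = 0.46) and -0.10 (adjusted p = 0.65).

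The L and S copies of some genes moved by different amounts. Of 36 member genes with both copies tested, 13 rose in both copies, 1 (lsm14b) fell in both, 16 had a call in 1 copy and 6 in neither, and in none did the copies pass in opposite directions. Such counts were not made over all pairs, so these cannot be set against a background. The ratio of L to S, tested with limma on log2 CPM, differed between the groups in 12 of the 36 pairs. L gained on S in 6 of these pairs and lost in 6. Of all 7427 pairs tested 1801 (24.2%) differed, so changed ratios were common outside the members too. How reads that match both homeologues were counted is not given in the sources used here. The count of 12 was 7 without control pool 1, control pool 2 or CRISPant pool 7 and 6 without CRISPant pool 9. The share over all pairs was not counted in these fits. Whichever pool was left out, 5 pairs passed, namely u2af2, snrpb, lsm1, lsm4 and sf3b1.

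The log2 ratio of u2af2.L to u2af2.S was -2.58, -2.61, -2.61 and -2.67 in the control pools and -2.05, -2.002, -2.06 and -1.99 in the CRISPant pools. It rose by 0.59 (standard error 0.07, adjusted p = 0.0011), and no pools overlapped. For snrpb the ratio was 0.24, 0.25, 0.21 and 0.21 in the control pools and -0.16, -0.31, -0.30 and -0.19 in the CRISPant pools, positive in every control pool and negative in every CRISPant pool, a difference of -0.47 (standard error 0.06, adjusted p = 0.0014). For lsm1 it was -1.45, -0.97, -0.84 and -0.89 in the control pools and -0.33, -0.41, -0.28 and -0.35 in the CRISPant pools, a difference of 0.70 (standard error 0.13, adjusted p = 0.0064). The lsm4 ratio changed by -0.41 (standard error 0.08, adjusted p = 0.0082) and the sf3b1 ratio by -0.24 (standard error 0.05, adjusted p = 0.014), both without overlap. The snrnp70 ratio changed by 0.23 (standard error 0.06, adjusted p = 0.021) and passed in 5 of 8 fits with a pool left out.

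**Figure D5:**
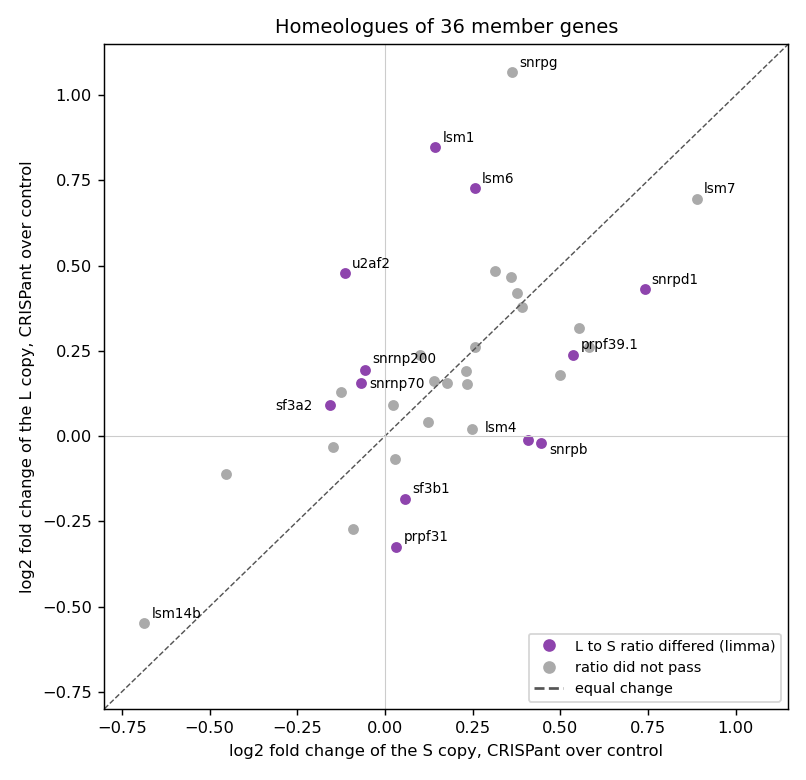
Log2 fold change (CRISPant over control) of the L copy (vertical axis) against that of the S copy (horizontal axis) for 36 member genes, with purple points where the ratio of the copies differed between the groups in limma and a dashed line of equal change. Of the 12 purple points, 6 lie above the line and 6 below, with u2af2, lsm1 and lsm6 above and snrpb, lsm4 and snrpd1 below.

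With the counts of both copies summed, 29 of 55 genes rose and 5 fell, or 52.7% and 9.09% of the genes, against 22.2% and 21.4% of all 17826 summed genes tested. Genes with a single row, such as snrpa, snrpc, prpf8, sf3b5 and snrnp27, entered with that row alone. Each of the 8 LSm ring genes and 6 of the 7 Sm ring genes rose, snrpf being the exception. The 5 that fell were prpf40b, snrpa1, sf3b5, snrnp27 and lsm14b.

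Other genes that act with the snRNPs were counted from lists by function, none of them members, and are read beside the 21.7% of all genes that rose and the 20.8% that fell. Of 27 tested rows for snRNP assembly factors, 12 rose (44.4%) and 1 fell (3.70%), and the log2 fold change had a median of 0.20. prmt5.L, for the enzyme that methylates Sm proteins before they are loaded onto RNA, was at 34.7, 36.02, 32.3 and 33 CPM in the control pools and 56.02, 47.3, 64.1 and 68.5 CPM in the CRISPant pools. It rose without overlap (log2 fold change 0.79 ± 0.09 SE, adjusted p = 8.2e-06), and prmt5.S rose by less, with 0.23 (adjusted p = 0.03). smn1.S, for the SMN protein that loads the Sm ring, was at 9.03, 9.23, 11.3 and 10.6 CPM in the control pools and 14.6, 16.8, 17.7 and 14.8 CPM in the CRISPant pools (log2 fold change 0.68 ± 0.10 SE, adjusted p = 1.5e-05), and gemin4.L, of the same complex, at 18.9, 17.1, 19.3 and 14.99 CPM in the control pools and 12.4, 11.4, 10.98 and 11.02 CPM in the CRISPant pools. The first rose and the other fell (log2 fold change -0.62 ± 0.09 SE, adjusted p = 2.1e-05), both without overlap. The other copy of the SMN gene, smn1.L, was at 40.7, 40.99, 44 and 43.01 CPM in the control pools and 39.3, 38.6, 40.4 and 39.02 CPM in the CRISPant pools and did not pass, with every CRISPant pool below every control pool (log2 fold change -0.10 ± 0.06 SE, adjusted p = 0.18).

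Of 34 rows for other snRNP-bound proteins 13 rose (38.2%) and 4 fell (11.8%), with a median of 0.09. Their log2 fold changes ran from -0.56 (smndc1.S) to 0.64 (zmat2.L). zmat2.S also rose, with 0.32, and so did smndc1.L, with 0.27. Among the other rows, dnajc8.S rose with 0.54 while dnajc8.L, at 0.08, did not pass. Both copies of luc7l3, for a U1-associated factor, rose with 0.50 (L) and 0.15 (S), and both copies of u2surp, for a U2-associated factor, fell, with -0.16 (L) and -0.35 (S). Of 20 rows for the Prp19 complex and its partners 6 rose (30%) and 1 fell (5%), with a median of 0.09 and with ppil1.L at 0.53 and rbm22.S at -0.33. Of 16 rows for spliceosomal helicases and, in the same list, the GTPase gene eftud2, 5 rose (31.2%) and 3 fell (18.8%), with a median of 0.09. ddx23.L, for the helicase of the tri-snRNP, was at 11.7, 11.1, 11.6 and 9.87 CPM in the control pools and 19.04, 19.6, 15.5 and 17.8 CPM in the CRISPant pools (log2 fold change 0.70 ± 0.09 SE, adjusted p = 5.6e-06). ddx23.S was at 115.4, 114.4, 119.2 and 118.2 CPM in the control pools and 107.5, 114.1, 113.8 and 111.6 CPM in the CRISPant pools and did not pass, again with every CRISPant pool below every control pool (log2 fold change -0.06 ± 0.05 SE, adjusted p = 0.32). The copies of ddx42 went opposite ways, with 0.23 (adjusted p = 0.0012) for L and -0.38 (adjusted p = 3.7e-06) for S. Of 12 rows for the exon junction complex, which is left on spliced mRNA, 4 rose (33.3%) and none fell. These rows cover 6 of the 7 genes listed, since no row had the symbol eif4a3. The median was 0.10, and magoh.S and magoh.L rose with 0.54 (adjusted p = 3.9e-05) and 0.38 (adjusted p = 3.5e-04).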

How the data were processed

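RNA of 8 pools of tadpole brains was sequenced by the authors as stranded mRNA libraries. Single reads were mapped by them to XENLA_10.1 with DRAGEN and assigned to genes by FeatureCounts, and the deposited table holds raw counts per gene for 41881 rows. Whether FeatureCounts used strand or multi-mapped reads is not given in the sources used here. Columns were assigned to samples by library name, and no pair of replicates was alike within sampling noise.

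After removal of low genes with filterByExpr (minimum count 10), counts were scaled by TMM and tested with edgeR 4.0.16 in R 4.3.3 (glmQLFit with robust estimation, glmQLFTest, condition only). The standard error of a fold change was obtained by dividing it by the root of F. L to S ratios were compared in limma 3.58.1 (prior count 2, trend). Adjusted p-values are Benjamini-Hochberg over all genes or all pairs. No sets were tested. The tests were tried on data simulated from these counts. Far fewer genes were changed in that trial than were called here, so it does not show the share of false calls in these data. Coordinates are from RefSeq (v10.1), which matched 88 of 92 members by symbol.

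The members, role groups and lists were chosen with earlier results of these data known. The symbol prpf39.1 was placed with prpf39. All members may be named, except 1 gene that is counted with its group but not reported here. Values per pool are given for up to 4 members of each role group with the smallest p, those called with a change over 1.5-fold, those called against most of their group, and up to 6 pairs with a changed ratio. For other members and for genes of the pathway lists, names were chosen after the values were seen. The same holds for those of them with values per pool, among the members sf3a1.L. The alternatives tried were median-of-ratios scaling, a test in DESeq2 1.42.0, every gene with a count, genes with 1 CPM or more in 4 samples or more, edgeR with its robust estimation off, summed homeologues and each pool left out. No protein or promoter sequence was used here.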

Additional observations from a re-analysis of the deposited data

Results flagged for a closer look

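The check covered the 49 members given values per pool by the stated rule, thus not sf3a1.L. Each group of 4 pools was checked for a pool far from the other 3 (98 groups, by Dixon's ratio at its 95% critical value). Chance flags about 1 in 20 such groups. There were 5. In control pool 1 prpf6.L stood at 60.5 CPM, under 68.2 to 68.5 CPM in the other controls. In CRISPant pool 4 prpf19.L stood at 43.5 CPM, under 51.5 to 53.1 CPM in the other CRISPant pools, and prpf38b.S at 23.7 CPM, under 26.6 to 27.0 CPM. In CRISPant pool 3 snrpc.S stood at 63.5 CPM, over 58.1 to 58.9 CPM, and in CRISPant pool 9 lsm14a.S stood at 47.8 CPM, over 40.8 to 41.8 CPM.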

How the results depend on the processing

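No paired analysis was possible because the labels link no control pool to a CRISPant pool, and the shared replicate number 4 does not mark a pair. The median log2 fold change of all genes stayed between -0.006 and 0.001 under every alternative. With median-of-ratios scaling, with DESeq2 or with robust estimation off, no count of members differed by more than 1.5 times and no member changed its call. Without a filter prpf40b.L (adjusted p = 0.059), sf3b2.S (0.051) and snrnp27.S (0.059) lost their calls, leaving 0 U1 members and 1 tri-snRNP member lower, and with the CPM filter sf3a2.S gained one (0.046). With homeologues summed, which leaves 55 genes, 29 rose and 5 fell, with 6 higher in the Sm ring, 4 higher in U1, and 3 higher and 1 lower in the tri-snRNP. With 1 pool left out, 4818 to 5396 of all genes rose and 4603 to 5104 fell, and of the members 38 to 46 rose and 5 to 10 fell. Higher counts then ran from 10 to 10 in the Sm ring, 4 to 7 in U1, 5 to 7 in U2, 3 to 5 in the tri-snRNP and 9 to 11 in LSm 1 to 8. Lower counts ran from 0 to 2 in U1, 3 to 5 in U2 and 0 to 3 in the tri-snRNP, and 6 to 12 pairs had a changed ratio. Over 91 members and 8 such fits, 653 values kept direction and call, 46 lost the call, 10 gained it and 19 changed sign. The members that changed sign had no call, and their log2 fold changes ran from -0.076 to 0.031 (snrpb.L), -0.028 to 0.089 (snrpf.S), -0.073 to 0.013 (sf3a3.L), -0.019 to 0.059 (u2af1.L), -0.014 to 0.098 (prpf31.S), -0.053 to 0.046 (lsm4.L), -0.196 to 0.038 (lsm11.S), -0.01 to 0.051 (prpf18.L), -0.138 to 0.014 (prpf38a.S) and -0.009 to 0.053 (prpf4b.S). The cause was not tested. Members with few counts, such as snrpg.L and sf3a1.S, are measured least precisely. Gene lengths were not used here, so each row enters a summed level by its CPM, and levels of different genes were not compared per length.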
